A study of Mus musculus with 74 samples.

Results

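The simple epithelial keratins Krt7, Krt8, Krt18 and Krt19 and the filament gene Vim were described in single cells of the mouse pro-epicardial organ, a mesothelial outgrowth at the venous pole of the embryonic heart that gives rise to the epicardium. These 5 genes were chosen by name, with earlier results of these data known, from the 30323 genes of the count table, which holds 54 keratin genes. Their values were read in all 74 cells. The cells came from C57BL/6 embryos at embryonic day 9.5 with the genotype Tbx18Cre;mTmG and were sorted singly by flow cytometry. Tbx18Cre recombines the mTmG membrane reporter wherever Tbx18 is or has been active, so the reporter marks lineage history and not current Tbx18 expression. All cells belong to 1 group, with no treatment and no control, and the labels name no embryo or litter. The cells therefore stand for 1 sample and were not tested against each other. Spread over cells is given as a standard deviation (SD), and a share of cells carries its exact 95% interval by the Clopper-Pearson method, for counting error alone.

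Keratin filaments are obligate heteropolymers of a type I and a type II chain. Krt8 (type II) and Krt18 (type I) form the first keratin pair of the embryo and the default pair of simple epithelia, while Krt7 (type II) and Krt19 (type I) are added in ducts and in mesothelium. Vim encodes vimentin, a type III chain that assembles without a partner and is the main filament of mesenchymal cells. Mesothelium, the epithelium that lines body cavities and covers their organs, is known for making keratins and vimentin in the same cell.

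Total counts per cell ranged from 216177 to 2618538, with a median of 849718, and the median cell had 7858.5 genes at 5 or more counts, the limit used here for calling a gene detected. Levels are CPM, the counts of a gene scaled to a fixed total per cell, and levels of different genes are compared only per kilobase (kb) of the longest coding transcript. Markers of the labelled tissue were present, since 10 of 11 listed mesothelial and epicardial genes were detected in at least 10% of cells. Of these, Tbx18 was detected in 69 cells and Wt1 in 60, while Msln was detected in 1. Cardiomyocyte genes were present as well: Actc1, the cardiac alpha-actin, reached 1000 CPM or more in 18 cells. The cells were read in 3 ranges of Lhx9, a LIM homeodomain factor of the pro-epicardium, and Actc1. Lhx9 was detected in 33 cells with Actc1 under 1000 CPM, and it was not detected in 23 such cells. The other 18 cells had Actc1 at or above 1000 CPM, and 1 of them also had Lhx9. These ranges are cuts on 2 levels, not cell types: 9 cells had 1 to 4 counts of Lhx9, 2 cells had 5 to 20, 5 cells had Actc1 from 500 to under 1000 CPM and 5 from 1000 to 2000.

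Krt8 and Krt18 lie next to each other on mouse chromosome 15 in divergent orientation (GRCm38, GENCODE M21 annotation). Krt8 (ENSMUSG00000049382) spans chr15:101996698-102004482 on the minus strand in 9 exons, and Krt18 (ENSMUSG00000023043) spans chr15:102028180-102032027 on the plus strand in 7 exons, 23.7 kb away. Krt7 (ENSMUSG00000023039) lies 566 kb from Krt8, at chr15:101411043-101430313. Krt19 (ENSMUSG00000020911), of the type I cluster, is at chr11:100140810-100148665, and Vim (ENSMUSG00000026728) is at chr2:13573927-13582826. The RefSeq promoter windows (GRCm38.p6, 250 bases before to 50 after the start) matched 4 of the 5 genes, Krt19 being the one without a match. The upstream stretches of Krt8 and Krt18 are shown because these genes varied together, as described below. Only the bases outside the GENCODE M21 exons are printed, on the strand of the gene, with capitals for the one motif found in them, CACCTG, the E2 box bound by Snail and Zeb repressors.
Krt8, chr15:102004483-102004592, minus strand: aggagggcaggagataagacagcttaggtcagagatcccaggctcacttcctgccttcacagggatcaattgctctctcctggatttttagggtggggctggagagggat
Krt18, chr15:102027966-102028179, plus strand: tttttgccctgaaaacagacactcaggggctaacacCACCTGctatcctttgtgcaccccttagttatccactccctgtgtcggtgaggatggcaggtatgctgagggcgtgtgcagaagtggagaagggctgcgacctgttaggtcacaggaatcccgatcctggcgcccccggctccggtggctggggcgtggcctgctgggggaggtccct
The windows were searched on both strands for 6 motifs. These were the TATA box as TATAAA, the GC box as GGGCGG, the AP-1 site as TGANTCA, the TEAD site as GGAATG, the CCAAT box by those letters, and CACCTG, which was added after the sequences had been read. CACCTG occurred once in the window of each of Krt7, Krt8 and Krt18 and not in that of Vim, and 20.2% of all 32851 windows held it. In Krt18 it began 214 bases before the RefSeq start, in the printed stretch. In Krt8 it began 111 bases before the start, inside the first exon of GENCODE M21 and so outside the printed stretch. Krt7 had 4 matches of GGGCGG, which 35.7% of windows held, and Krt8 and Krt18 had none. TATAAA, held by 13.6% of windows, began 32 bases before the start of Vim and 1 base before that of Krt8, where a match on the other strand overlapped it. CCAAT matched at 2 places in Vim and in none of the 3 keratins, against 37.4% of windows. TGANTCA (7.81% of windows) and GGAATG (14.7% of windows) matched in none of the 4. A match is a string of letters, and binding was not measured.

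Vim was found in every cell and Krt8 in nearly all. Vim was detected in 74 of 74 cells, with 190 CPM in the lowest cell, a median of 833 and 1730 in the highest. Its mean was 865 ± 357 CPM (SD over 74 cells), the smallest spread relative to its mean among the 5 genes. Krt8 ranged from 0 to 784 CPM with a median of 254 and was detected in 68 cells, or 91.9% (95% interval 83.2 to 97.0). Krt8, the keratin found in most cells, missed detection in 6 cells, 5 of them at 0. Krt18 ranged from 0 to 921 CPM with a median of 116 and was detected in 63 cells, or 85.1% (75.0 to 92.3). Its SD over cells (196 CPM) was larger than its mean (187 CPM), and 10 cells were at 0. Reads of processed pseudogenes of Krt8 and Krt18 can be counted to these genes, which was not tested.

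The ductal and mesothelial keratins were sparser. Krt19 was detected in 38 cells, or 51.4% (39.4 to 63.1), with a median of 8.65 CPM and a maximum of 400 CPM. Krt7 was detected in 26 cells, or 35.1% (24.4 to 47.1), with a median of 1.57 CPM and a maximum of 139 CPM. A further 16 cells held 1 to 4 counts of Krt7 and only 3 cells held so few of Krt19, so the share of Krt7-positive cells depends on the limit of detection. Per kb, the order of median levels was Vim at 380 CPM per kb, Krt8 at 129, Krt18 at 80.8, Krt19 at 5.49 and Krt7 at 0.38. Mean levels per kb of Krt8 (142 ± 100, SD over 74 cells) and Krt18 (130 ± 136) differed by less than the spread of either over cells. The means of Krt19 (25.0 ± 47.2 CPM per kb) and Krt7 (2.84 ± 5.36) likewise overlapped in their spread.

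Other keratins contributed little. Of the 50 other keratin genes in the table, 30 were at 0 in every cell, and the 4 simple epithelial keratins held 96.7% of all keratin CPM. Krt10, a type I keratin of the suprabasal epidermis, was the only other one detected in at least 10% of cells. It reached 5 counts in 32 cells, at a mean of 6.60 ± 7.50 CPM (SD, 74 cells). Krt20, a type I keratin of the gut and urothelium that was chosen after its values were seen, was detected in 7 cells and reached 110 CPM. Krt5, which marks basal cells of stratified epithelia, was detected in 1 cell, and its partner Krt14 in 4.

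**Figure D1:**
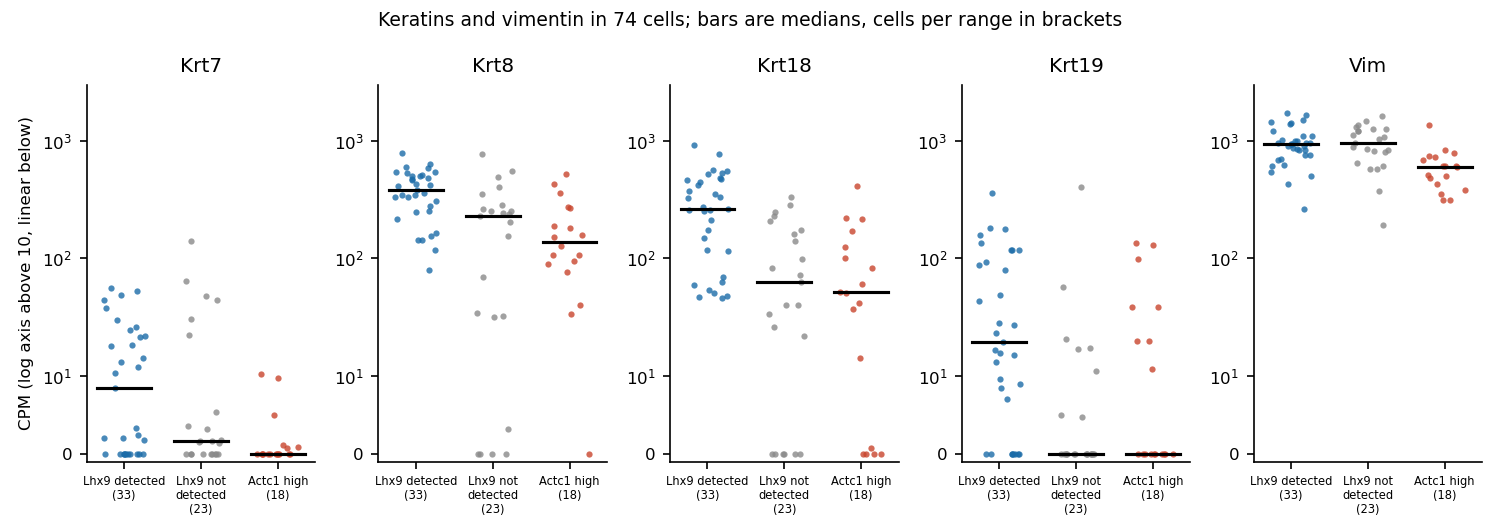
CPM of Krt7, Krt8, Krt18, Krt19 and Vim in each of the 74 cells (points), split by the 3 ranges of Lhx9 and Actc1, with bars at the medians. The axis is logarithmic above 10 CPM and linear below. Krt8 and Krt18 are above 0 in all 33 Lhx9-detected cells, and Vim is above 0 in every cell.

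Most cells carried a complete keratin pair. Krt8 and Krt18 were both detected in 61 of 74 cells, Krt8 without Krt18 in 7, Krt18 without Krt8 in 2 and neither in 4. Independent detection of the 2 genes at the same rates would give both in 57.9 cells, near the count found. The most frequent sets were Krt8, Krt18 and Krt19 in 19 cells, Krt8 and Krt18 alone in 18, all 4 keratins in 15, and Krt7, Krt8 and Krt18 in 9. Krt8 alone was detected in 6 cells and no keratin in 3. Counting any count at all, 65 cells held chains of both types, 8 held type II chains only, 1 held type I chains only, and none held neither.

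The cells without Krt8 differed among themselves in what they carried. Cell P1-32 had Krt18 at 207 CPM and Krt7, the alternative type II chain, at 64.3 CPM, with Krt8 at 0. Cell P1-63 had Krt18 at 40.2 CPM and Krt19 at 17.1 CPM with no count of either type II chain. Cell P1-21 had Krt19 at 56.4 CPM, with Krt8 and Krt18 at 0 and Krt7 at 3.60 CPM. All 3 cells lacked Lhx9, and their total counts, from 994986 to 1665987, were above the median of all cells. The 3 cells without a detected keratin (P1-71, P1-84 and P1-86) had between 615362 and 1276563 total counts and between 376 and 855 CPM of Vim.

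Summed type I and type II chains were near parity in the median cell and far from it in many single cells. The balance was taken as log2 of summed type I (Krt18 and Krt19) over summed type II (Krt7 and Krt8) CPM per kb, after adding 1 CPM per kb to each sum. Its median was -0.24, with an interquartile range from -1.28 to 0.79 and extremes of -7.03 and 5.32. Type I was in excess in 34 cells and type II in 40, and 37 cells lay within 1 log2 unit of parity. The extremes are cells in which one type had no count, so their size is set by the added value. Krt8 made up a median of 99.7% of type II CPM per kb (73 cells with type II), and Krt18 a median of 93.0% of type I CPM per kb (66 cells with type I). The balance was therefore mainly that of Krt18 to Krt8, whose log2 ratio had a median of -0.35.

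The extremes of the balance lay outside the Lhx9-detected range, while its middle spread was alike with and without Lhx9. In the 33 Lhx9-detected cells its median was 0.22, with quartiles at -0.81 and 0.83 and a range from -3.05 to 2.61. In the 23 cells without Lhx9 the median was -0.48, with quartiles at -1.35 and 0.28 and a range from -7.03 to 5.32. In the 18 Actc1-high cells the median was -0.52, with quartiles at -2.36 and 0.38. The 3 ranges overlapped widely, and their medians differed by less than the SD within any of them (1.30, 2.78 and 2.31). Within the Lhx9-detected range the balance moved with Krt18 (Spearman correlation 0.78, n = 33), which enters the balance itself.

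Across the 74 cells the levels of the 2 partner genes varied together. The Spearman correlation of Krt8 and Krt18 CPM was 0.61, and Krt18 was the gene most like Krt8 among 7900 genes detected in at least 50% of cells. Without the Actc1-high cells the correlation was 0.57 and Krt18 was in place 4. These values are descriptions over cells that share 1 preparation and the scaling to each cell's total. Within the ranges the correlation of Krt8 with Krt18 was 0.44 in the 33 Lhx9-detected cells, 0.51 in the 23 without Lhx9 and 0.54 in the 18 Actc1-high cells. Each of these was below the value over all cells, and the levels of both genes also differed between the ranges. Summed type I and type II levels per kb had a correlation of 0.59. Of the sparser pairs, the correlation was 0.47 for Krt18 with Krt19, 0.40 for Krt7 with Krt18, 0.32 for Krt7 with Krt8, 0.31 for Krt8 with Krt19 and 0.20 for Krt7 with Krt19. Krt7 and Krt19 were at 0 in 32 and 33 cells, and weak correlations in counts so sparse carry little.

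**Figure D2:**
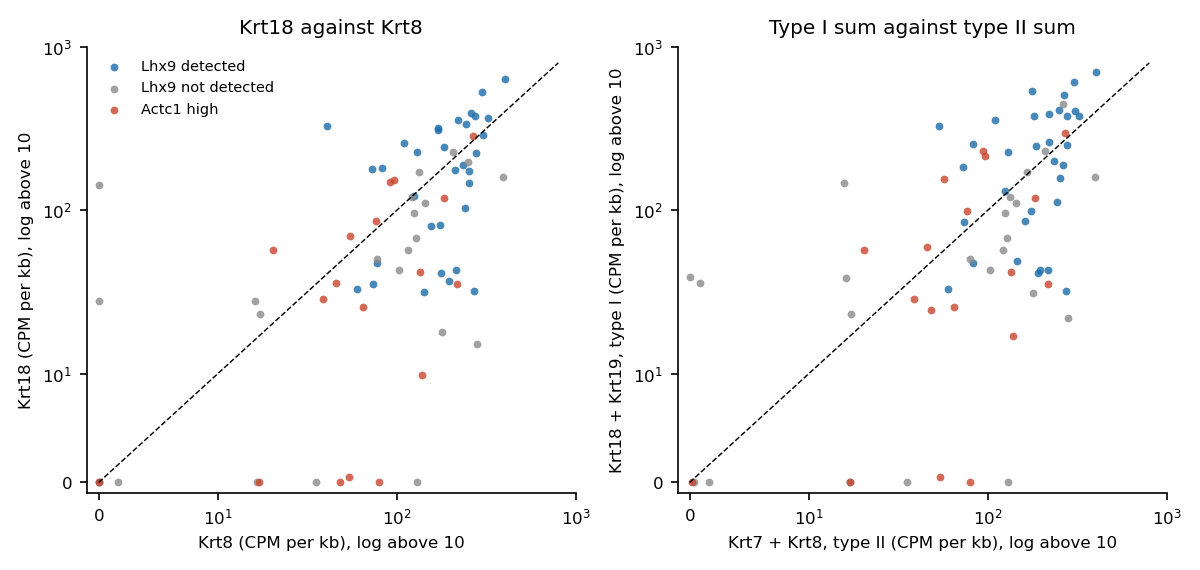
Left, Krt18 against Krt8, and right, summed type I (Krt18 and Krt19) against summed type II (Krt7 and Krt8) levels, in CPM per kb, for 74 cells coloured by range. Axes are logarithmic above 10 and linear below, and the dashed line marks equal levels. Cells lie on both sides of the line, 34 above it and 40 below in the right panel. Cells on an axis have Krt8 or Krt18 at 0 in the left panel and a chain type at 0 in the right panel.

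Keratins and vimentin were present together, and over all 74 cells their levels varied together only weakly. Since Vim was detected in every cell, each cell with a detected keratin held both. The Spearman correlation with Vim was 0.17 for Krt7, 0.14 for Krt8, 0.10 for Krt18 and 0.12 for Krt19 (n = 74). In a ranking by likeness to Vim of the 7900 genes detected in at least 50% of cells, which leaves out Krt7, Krt8 was in place 1591, Krt19 in place 1883 and Krt18 in place 2370. Summed keratin per kb had a correlation of 0.13 with Vim over all cells, and of -0.15 in the 33 Lhx9-detected cells, -0.04 in the 23 without Lhx9 and 0.26 in the 18 Actc1-high cells. The sign is not the same in the 3 ranges. In the same order, the correlation with Vim was -0.17, -0.13 and 0.49 for Krt18, and 0.11, 0.01 and 0.03 for Krt8. Vim also followed the total counts of a cell (0.32), whereas summed keratin did not rise with them (-0.16), and the part of depth in these values was not tested.

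The ratio of the 2 filament systems varied over a wide range. Keratins made up a median of 38.5% of keratin plus Vim CPM per kb, from 0.10% in cell P1-86 to 78.1% in cell P1-68. Keratin exceeded Vim per kb in 22 of 74 cells. These were 14 of 33 Lhx9-detected cells, 5 of 23 cells without Lhx9 and 3 of 18 Actc1-high cells. The median keratin share was 48.2% in Lhx9-detected cells, 25.4% in cells without Lhx9 and 33.5% in Actc1-high cells. The SD over cells was 16.6 to 21.2 percentage points within the ranges, so the ranges overlap. No Lhx9-detected cell was under 14.8%, a level that 7 of the 23 cells without Lhx9 and 3 of the 18 Actc1-high cells did not reach.

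**Figure D3:**
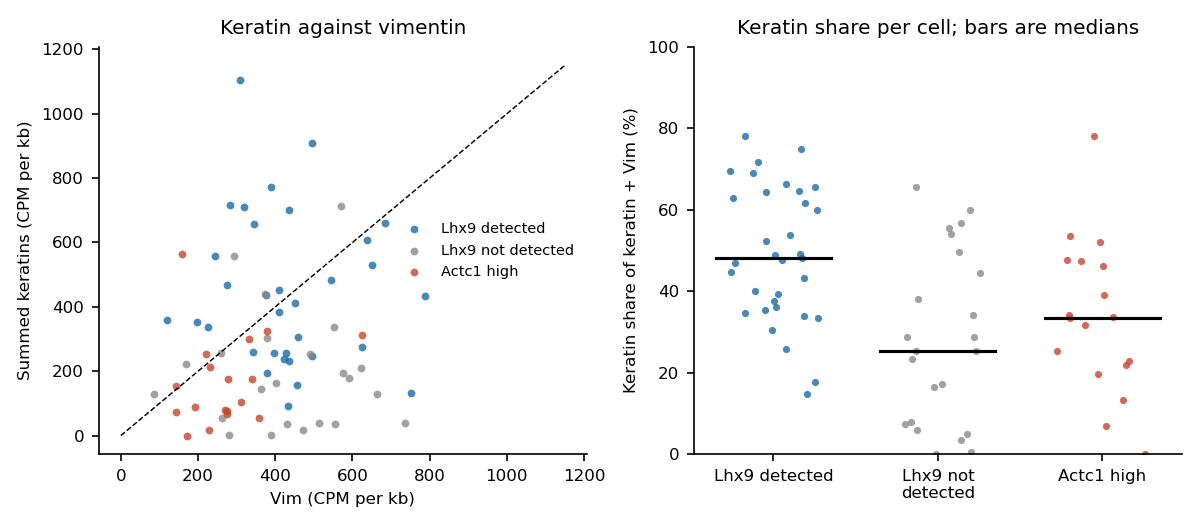
Left, summed keratin against Vim in CPM per kb for 74 cells, with a dashed line of equal levels. Right, the keratin share of keratin plus Vim in percent by range, with bars at the medians of 48.2%, 25.4% and 33.5%. The 22 cells above the line come from all 3 ranges.

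Krt18 and Krt8 had higher medians in cells with Lhx9 than in cells without it. Krt18 ranged from 45.4 to 921 CPM with a median of 261 in the 33 Lhx9-detected cells, and from 0 to 328 CPM with a median of 62.2 in the 23 cells without Lhx9. Although these ranges overlap, 11 of the 23 cells were below the lowest Lhx9-detected cell. The ratio of mean Krt18 CPM (303 ± 222 over 97.4 ± 103, SD over cells) was 3.11. Krt8 ranged from 79.4 to 784 CPM with a median of 383 in Lhx9-detected cells, and from 0 to 768 CPM with a median of 228 without Lhx9. Here 9 of 23 cells were below the lowest Lhx9-detected cell. The ratio of mean Krt8 CPM (381 ± 169 over 211 ± 204) was 1.81, and without cell P1-56 it was 2.06.

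Krt19 and Krt7 showed how far single cells can set a mean. Krt19 had a median of 19.4 CPM and was detected in 24 of 33 Lhx9-detected cells, and it had a median of 0 and was detected in 7 of 23 without Lhx9. The ratio of its means (57.5 ± 78.3 over 23.1 ± 83.2 CPM) was 2.49. Cell P1-37, with 400 CPM, carried most of the Krt19 in the cells without Lhx9, and the ratio was 9.61 when it was left out. Krt7 had a median of 8.39 CPM and was detected in 17 of 33 Lhx9-detected cells, against a median of 1.58 CPM and 7 of 23 cells without Lhx9. The ratio of its means (14.1 ± 17.1 over 16.0 ± 32.5 CPM) was 0.88, and it was 1.36 without cell P1-24, which had 139 CPM. Vim had medians of 927 and 945 CPM, and the ratio of its means (945 ± 341 over 956 ± 359) was 0.99. In all, 2 of the 5 genes, Krt18 and Krt19, had a mean at least 2-fold higher in Lhx9-detected cells, where 6.35% of 11435 genes detected in at least 10% of cells did so. None of the 5 was at most 0.5-fold, against 9.92% of genes.

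Lhx9-detected cells also carried more kinds of keratin. At least 2 keratins were detected in each of these 33 cells, with 4 keratins in 12, 3 in 17 and 2 in 4. Of the 23 cells without Lhx9, 1 had 4 keratins, 8 had 3, 9 had 2, 3 had 1 and 2 had none. Of the 18 Actc1-high cells, 2 had 4 keratins, 4 had 3, 8 had 2, 3 had 1 and 1 had none. Median total counts were 788465 in the Lhx9-detected cells, 1173021 in those without Lhx9 and 817113.5 in the Actc1-high cells. The mean number of keratins per cell was 3.24 ± 0.66 (SD), 2.13 ± 1.01 and 2.17 ± 1.04 in the 3 ranges. At an equal depth of 350000 counts, with ranges redrawn and 7 cells too shallow to enter, it was 3.00 ± 0.73, 1.92 ± 0.93 and 2.00 ± 0.89. Over all 74 cells Lhx9 had a Spearman correlation of 0.53 with Krt18, 0.46 with Krt8, 0.39 with Krt19, 0.23 with Vim and 0.17 with Krt7. Within the 33 Lhx9-detected cells the correlation with Lhx9 was 0.10 for Krt18 and 0.11 for Krt8. Both values were below those over all cells.

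At the limit of 1000 CPM, cells high in Actc1 had lower means of all 5 genes, to different extents. In these 18 cells Krt18 ranged from 0 to 408 CPM with a median of 51.0, and Krt8 from 0 to 524 CPM with a median of 138. Both overlapped the other 56 cells, whose medians were 167 CPM for Krt18 and 294 CPM for Krt8. The ratio of means was 0.40 for Krt18 (87.3 ± 107 over 219 ± 208 CPM, SD) and 0.57 for Krt8 (177 ± 142 over 311 ± 201). Krt7 was detected in 2 of the 18 cells and reached 10.3 CPM, and the ratio of its means (1.53 ± 3.30 over 14.9 ± 24.3) was 0.10. Leaving out cell P1-35 gave 0.07 for Krt7.

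Krt19 and Vim were less far apart between these cells. Krt19 was detected in 7 of 18 Actc1-high cells and in 31 of 56 others, and the ratio of its means (27.2 ± 45.4 over 43.4 ± 81.4 CPM) was 0.63. Without cell P1-35 or cell P1-59, which had 134 and 130 CPM, that ratio was 0.48 or 0.49. Vim ranged from 313 to 1368 CPM with a median of 596 in Actc1-high cells, against a median of 933 CPM in the others, and the ratio of its means (601 ± 250 over 949 ± 346) was 0.63. Thus 2 of the 5 genes, Krt7 and Krt18, had a mean at most 0.5-fold in Actc1-high cells, where 10.2% of genes did so, and none was at least 2-fold higher, against 6.79% of genes. All but 1 of the 18 cells lacked Lhx9 as well. Set beside the 23 cells without Lhx9 and with less Actc1, their mean Krt18 was 87.3 ± 107 against 97.4 ± 103 CPM. Mean Krt19 was 27.2 ± 45.4 against 23.1 ± 83.2 CPM and mean Krt8 177 ± 142 against 211 ± 204 CPM. For these 3 genes the means differed by less than the SD in either range. For Vim and Krt7 they differed by more than the SD in the Actc1-high cells but by less than that in the cells without Lhx9. Mean Vim was 601 ± 250 against 956 ± 359 CPM, with medians of 596 and 945. Mean Krt7 was 1.53 ± 3.30 against 16.0 ± 32.5 CPM, with medians of 0 and 1.58. The latter mean includes cell P1-24, which had 139 CPM. The limit matters for 3 of the genes: with 300 CPM in place of 1000, the ratio was 0.69 for Krt18, 0.50 for Krt7 and 1.25 for Krt19, which then was higher in the Actc1-high cells. With 5000 CPM the ratio for Krt18 was 0.22.

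Within ranges, Actc1 did not relate to Krt18 in 1 direction. In the Lhx9-detected cells, where Actc1 was at 0 in 16 of 33 and at most 613 CPM, the Spearman correlation of Krt18 with Actc1 was 0.54. In the 18 Actc1-high cells, where Actc1 ran from 1018 to 29645 CPM, it was -0.47, and that of Krt8 with Actc1 was -0.40. In the 23 cells without Lhx9 it was 0.12 for Krt18. Vim had a correlation of -0.32 with Actc1 over all cells and of 0.09, 0.05 and -0.26 within the 3 ranges.

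**Figure D4:**
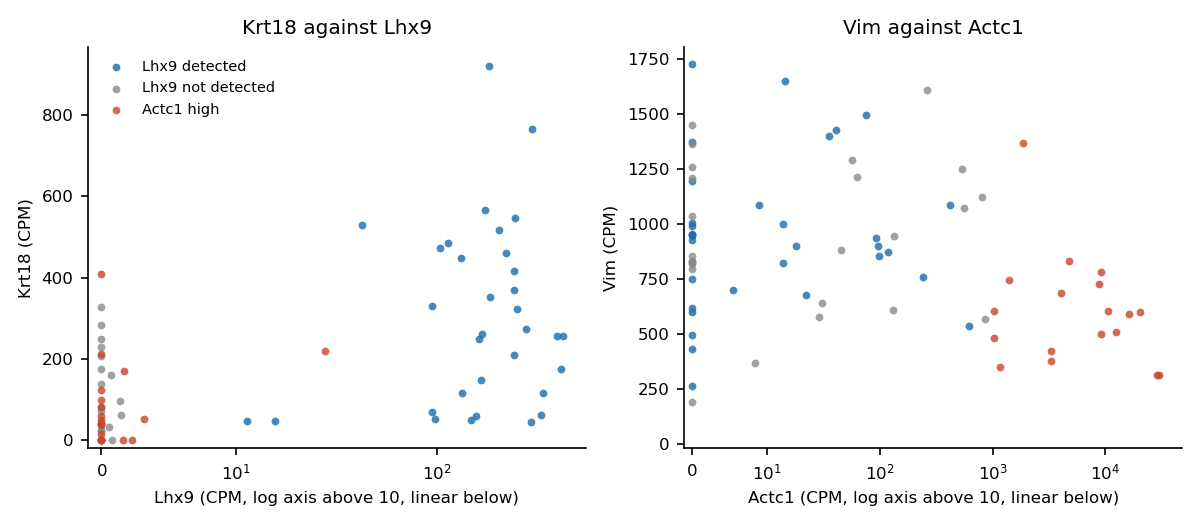
Left, Krt18 against Lhx9, and right, Vim against Actc1, in CPM for 74 cells coloured by range. The horizontal axes are logarithmic above 10 CPM and linear below. Lhx9-detected cells span 45.4 to 921 CPM of Krt18, the 2 cells of lowest Lhx9 lie near the bottom of that span, and the Actc1-high cells lie at 313 to 1368 CPM of Vim.

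Ezr, which encodes the microvillus linker ezrin, was the gene most like Krt18 across the 74 cells. For Krt18 the highest Spearman correlations were with Ezr (0.74), Bcar3 (0.73), Plp2 (0.69), Podxl (0.68), which encodes the apical sialomucin podocalyxin, Bex1 (0.66) and Tmem108 (0.65). Krt8 itself was in place 12 for Krt18. For Krt8, Krt18 was followed by Ezr (0.57), B4galt4 (0.57), Ccdc80 (0.56), Pard6b (0.56), a polarity complex gene, and Plp2 (0.55). The lowest were Csrp2 (-0.65), Dok4 (-0.62) and Bcat1 (-0.61) for Krt18, and Nr2f1 (-0.64), a nuclear receptor gene, Bcat1 (-0.52) and Meis3 (-0.52) for Krt8. For comparison, the median correlation over all 7900 genes was 0.02 for both, and the 95th percentile was 0.32 for Krt18 and 0.29 for Krt8.

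The nearest genes of the other members were less close. For Krt19 they were Aprt (0.50), Spon2 (0.49), Tmem151a (0.49), Ccnyl1 (0.48), Wwtr1 (0.48), which encodes the Hippo pathway coactivator TAZ, and Derl1 (0.47), with Krt18 in place 8, and the lowest were Nnat (-0.60), F2r (-0.53) and Nedd4 (-0.52). For Krt7 they were Rhpn2 (0.51), Itm2a (0.50), Sh3tc2 (0.49), Ezr (0.43), Dda1 (0.43) and Tcf7l2 (0.43), and the lowest were Prrx2 (-0.54), Alg2 (-0.46) and Meis3 (-0.40). Without the Actc1-high cells Ezr was among the nearest 6 of Krt18 and not of Krt7 or Krt8, and Krt7's list also lost it when genes in 10% of cells were ranked. For Vim they were Lgals1 (0.60), which encodes galectin-1, Phlda1 (0.56), Tmcc3 (0.53), Cnn3 (0.52), Daam2 (0.51) and Zfyve21 (0.50), and the lowest were Car14 (-0.48), Crabp2 (-0.48) and Wnt2 (-0.47). No gene was among the nearest 6 of both Vim and a keratin.

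The listed mesothelial genes went with the keratins, but the lists were chosen with earlier results of these data known. Ezr and Podxl of that list are also among the 6 genes nearest Krt18. The values below are therefore a description and not independent support. All 10 measured mesothelial and epicardial genes had a positive Spearman correlation with summed keratin, with a median of 0.59, where the median over all genes detected in at least 10% of cells was 0.01 and 52.6% were positive. The highest were Ezr (0.73), Upk3b (0.70) and Podxl (0.65), and Tcf21, a factor of mesenchymal epicardial derivatives, was lowest at 0.25. Of these 10 genes, 7 were at least 2-fold higher in Lhx9-detected cells (6.35% of all genes), among them Podxl (782 against 67.2 CPM), Ezr (664 against 118 CPM) and Upk1b (231 against 6.28 CPM). Upk1b was detected in 28 Lhx9-detected cells, 2 without Lhx9 and 3 Actc1-high cells, and Upk3b, also among the 7, in 30, 2 and 2. Both passed the 10% filter through the Lhx9-detected range alone, so their calls support nothing beyond these values. Of the 10, 9 were at most 0.5-fold in Actc1-high cells (10.2% of all genes), Tbx18 being the exception at 0.59. Of the 12 mesenchymal genes, 2 had a positive correlation with summed keratin, the median was -0.11, and 6 were at most 0.5-fold in Lhx9-detected cells (9.92% of all genes), among them Col1a1 (41.5 against 275 CPM) and Tnc (50.8 against 293 CPM). With Vim, the textbook mesenchymal filament, 8 of the 12 had a positive correlation, from -0.13 for Pdgfrb to 0.29 for Pdgfra, with a median of 0.05. Of the 8 measured cardiomyocyte genes, 1 (Myl7, 0.01) had a positive correlation with summed keratin. All 8 were at least 2-fold higher in the Actc1-high cells, against 6.79% of all genes, but Actc1 is one of them and sets that range. Myh6 was detected in 15 Actc1-high cells, 2 Lhx9-detected cells and 4 without Lhx9, so it passed the filter through the Actc1-high range alone.

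**Figure D5:**
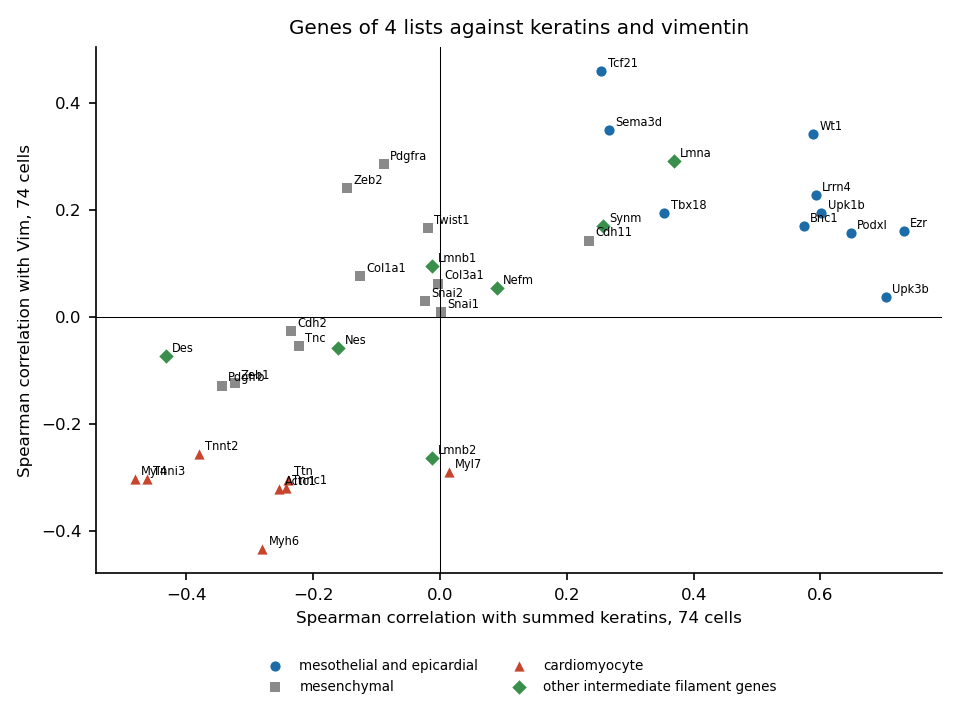
Spearman correlation over 74 cells of each measured gene of 4 lists with summed keratin (horizontal) and with Vim (vertical). The mesothelial and epicardial genes lie between 0.25 and 0.73 on the keratin axis, and Des lies at -0.43.

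Most listed markers of other keratin-bearing epithelia were detected in few cells or none, with Alb the main exception. Of 12 hepatoblast and foregut endoderm genes, 1 (Alb) was detected in at least 10% of cells. It was detected in 20 cells (27.0%), at 11.6 ± 34.1 CPM and up to 213 CPM. Ttr and Apoa1 were detected in 7 cells each (9.46%), just under that limit. Hnf4a and Foxa2 were at 0 in all cells, and Epcam was detected in 2 and Cdh1 in 1. The summed level of the 12 genes ranged from 0 to 215 CPM in Lhx9-detected cells, 0 to 239 CPM in those without Lhx9 and 0 to 164 CPM in Actc1-high cells. Its correlation with summed keratin was 0.08. None of 9 surface ectoderm genes was detected in 10% of cells, and the summed list reached at most 32.9 CPM. Trp63 reached 5 counts in 0 of 74 cells. For Trp63 the approximate upper limit of 3 over the number of cells, used in place of the exact interval, is 4.05%. Some endothelial genes (4 of 8 measured) were widely detected: Egfl7 in 67 cells (mean 57.8 CPM), Pecam1 in 62 (16.6 CPM) and Tek in 52 (50.8 CPM). Kdr was detected in 8 cells and Cdh5 in 0. None of the 4 was 2-fold higher in Lhx9-detected cells (6.35% of all genes), and Kdr was lower in Actc1-high cells (10.2% of all genes). Of 7 erythroid genes, the 2 measured, Hba-a1 (2.48-fold) and Hba-a2 (2.02-fold), had higher means in Lhx9-detected cells, against 6.35% of all genes. Their highest values in that range were 484 and 1050 CPM, against range means of 24.5 and 62.3 CPM, so these folds rest on few cells. The summed erythroid level had medians of 11.0 CPM with Lhx9 and 12.7 CPM without it. It reached 1551 CPM in 1 cell, and its correlation with summed keratin was 0.01. Leukocyte genes (1 of 5 measured) had no member past 2-fold. Of the neural crest genes (3 of 5 measured), Sox10 was detected in 8 Lhx9-detected cells and was at 0 in all others. Sox10 therefore passed the filter through that range alone. Ets1 was 0.35-fold in Actc1-high cells, where 10.2% of all genes were at most 0.5-fold. The part of these transcripts in the keratin values was not tested.

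Among other filament genes, Des moved opposite to the keratins. Des, which encodes the muscle filament desmin, averaged 73.7 CPM in Lhx9-detected cells, 283 CPM in cells without Lhx9 and 309 CPM in Actc1-high cells, and its correlation with summed keratin was -0.43. Of 15 listed filament genes 7 were measured, and in Lhx9-detected cells 2 of them, Lmna (2.56-fold) and Synm (2.62-fold), were higher, against 6.35% of all genes. Another 2, Des (0.26-fold) and Nefm (0.02-fold), were lower, against 9.92% of all genes. Nefm reached 699 CPM in 1 cell without Lhx9 and was detected in 4 of those 23 cells, so that cell sets its fold. Of 10 measured genes for keratin linkers and the desmosome plaque, Dsp (desmoplakin, which ties keratin or desmin to desmosomes) and Pkp3 were at most 0.5-fold in Lhx9-detected cells, at 0.40 and 0.43, against 9.92% of all genes. Dsp (2.01-fold) and Pkp2 (3.87-fold), both also part of cardiac junctions, were higher in Actc1-high cells, against 6.79% of all genes. Plec, which encodes the linker plectin, averaged 33.5 and 20.6 CPM with and without Lhx9, under the 2-fold limit.

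Filament chaperones and regulators of keratin genes were mostly under the 2-fold limit. Of 10 measured partners and chaperones, 2 were higher in Lhx9-detected cells (6.35% of all genes): Cryab (4.92-fold) and Hspa1a (6.54-fold), the latter detected in 9 cells in all. Hspb1 (9.92-fold), Cryab (5.63-fold) and Hspa1a (2.27-fold) were higher in Actc1-high cells (6.79% of all genes), and Hspa8, Ywhaz and Ywhae, the most abundant, stayed under 2-fold in both. Of 14 measured regulators, 3 had a mean at least 2-fold higher in Lhx9-detected cells, against 6.35% of all genes. They were the AP-1 subunit genes Fosl1 (10.1 against 0.34 CPM) and Fosl2 (6.89 against 2.24 CPM) and Klf4 (3.87 against 1.00 CPM). Grhl3 (0.40 against 4.51 CPM) was lower, against 9.92% of all genes. In Actc1-high cells Grhl3 was 5.78-fold, where 6.79% of all genes were at least 2-fold higher. Klf4, Ets2, Fosl1 and Fosl2, 4 of the 14, were at most 0.5-fold there, against 10.2% of all genes. These are low levels in few cells: Fosl1 was detected in 9 of its 12 cells within the Lhx9-detected range, Klf4 in 9 of 11 and Fosl2 in 10 of 14. They passed the 10% filter mainly through the range where they were high, so their calls support nothing beyond these values. The abundant regulators Jun, Klf6 and Fos stayed under 2-fold in both comparisons. The correlation with summed keratin was -0.32 for Zeb1, -0.15 for Zeb2, -0.02 for Snai2 and 0.00 for Snai1.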

How the data were processed

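Single-cell RNA was amplified with SMART-Seq V4 and made into Nextera XT libraries, per the labels' protocols. The authors' deposited table holds estimated counts per gene, stored as whole numbers. Kallisto (version not given in the sources used here) and the hg38 build appear in the submitters' processing notes, but all identifiers are mouse Ensembl ones. Of 30323 identifiers, 29857 were found in GENCODE M21 (GRCm38), the source of symbols and positions. Reads from processed pseudogenes of Krt8 and Krt18 could be shared with these genes, and this was not checked.

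Counts were scaled to CPM of each cell's total and, between genes, divided by the length of the longest coding transcript. Detection was 5 or more counts. Folds are ratios of mean CPM with a 2-fold limit, over 11435 genes detected in at least 10% of cells. Every cell was kept, and no doublet caller was run because the cells were sorted singly. The members and gene lists were chosen with earlier results of these data known.

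Named genes were the 5 members, Lhx9, Actc1, any other keratin detected in at least 10% of cells, the 3 most abundant and the 2-fold members of each list, and the 6 highest and 3 lowest Spearman correlations per member among genes in at least 50% of cells. Some further list members are named after their values were seen, and some that the rule names are left out. Alternatives changed scaling, detection, length, pseudocount, range limits and depth (thinning to 350000 counts, which left out 7 cells), and left out cells. The scripts were tested on simulated data. Computation used SciPy 1.17.1, pandas 2.3.3 and numpy 2.4.6 under Python 3.11.15, and plots used matplotlib 3.10.9.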

Additional observations from a re-analysis of the deposited data

How the results depend on the processing

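Each cell is a single library of 1 sample, so nothing here shows how far values differ between embryos, and the smallest libraries limit the sparse genes Krt7 and Krt19 most. No paired analysis was possible because there is 1 group. Medians of CPM in 10 alternatives and the median chain balance in 5 moved by less than the SD over cells. That SD is a wide limit (2.13 log2 units for the balance), so staying within it shows little. The median balance was -0.24, and it was -0.55 with coding length and -0.12 with a pseudocount of 10, the ends of its alternatives. Type I exceeded type II in 45.9% of cells, and in 36.5% to 45.9% under the alternatives. Krt7 was detected in 42 cells at 1 or more counts and in 16 after thinning, which left out 7 cells. Of 99 alternatives for the ratios, 88 stayed on the same side of the 2-fold limit. The ratio of medians was 5.33 for Krt7 (Lhx9-detected over undetected), and 0.47 for Krt8 and 0 for Krt19 (Actc1-high over the rest). Thinning gave 2.26 for Krt8 and 1.97 for Krt19 over Lhx9-undetected cells, and counting Lhx9 from 1 count gave 1.69 for Krt19. An Actc1 limit of 5000 CPM gave 0.46 for Krt8 and 0.49 for Krt19, and a limit of 300 CPM gave 0.69 for Krt18, 0.50 for Krt7 and 1.25 for Krt19. That limit also gave 7.88 for Krt19 over Lhx9-undetected cells. Krt7 over Lhx9-undetected cells was 1.11 with 5000 CPM and 1.11 after thinning. Leaving out single cells moved Krt8 over Lhx9-undetected cells between 1.73 and 2.06, and Krt19 in Actc1-high cells between 0.48 and 0.74. Of 59 alternatives for correlations, 52 moved by at most 0.1. Without the Actc1-high cells, Vim with Actc1 was 0.080, summed keratin with Actc1 0.070 and summed keratin with Vim -0.11. Within Lhx9-detected cells, a check added after seeing the data like the leaving out of single cells, Krt8 with Krt18 was 0.44, type I with type II 0.43, summed keratin with Lhx9 0.13 and summed keratin with Vim -0.15. Of the 6 genes most like each member, 1 remained for Vim, 2 for Krt7 and 3 for Krt8 without Actc1-high cells, and 5 for Krt18 and 4 for Krt19. The causes were not tested, except that thinning and left-out cells leave fewer counts.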
